A study of Mus musculus with 15 samples.

Results

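The clustered protocadherins are 57 protein-coding genes, of 55471 gene IDs in the count tables, that lie in 3 neighbouring clusters on mouse chromosome 18. They were chosen by symbol in GENCODE M21: 14 genes of the alpha cluster (Pcdha), 22 of the beta cluster (Pcdhb) and 21 of the gamma cluster (Pcdhg). On GRCm38 the alpha cluster spans positions 36930184 to 37187661, the beta cluster 37264938 to 37524479 and the gamma cluster 37661793 to 37841873, all on the plus strand. Matched by ID, 51 members had at least 1 count in the 15 libraries. The other 6 members (Pcdha4, Pcdha6, Pcdha8, Pcdhb9, Pcdhb10 and Pcdhb13) were at 0 in all 15. The symbol Pcdha11 belongs to 2 IDs, which are kept apart, and Pcdhgb8 is annotated as a polymorphic pseudogene and is no member.

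Clustered protocadherins are cell-surface adhesion proteins of the cadherin superfamily, best known in neurons. Each alpha and gamma gene has its own promoter and a large variable exon, which codes for the extracellular domains and is spliced to constant exons shared by the whole cluster, while beta genes are single variable exons. Neurons switch on a few variable promoters in a random choice that involves DNA methylation, CTCF and cohesin, and the resulting mix of proteins binds only the same mix on another membrane. The last genes of the alpha and gamma clusters (Pcdhac1, Pcdhac2, Pcdhgc3, Pcdhgc4 and Pcdhgc5) are the C-type isoforms, whose promoters are regulated apart from this choice.

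The study's title concerns enhancers and cell fate under NSD1, the Sotos syndrome protein, which methylates histone H3 at lysine 36. RNA was sequenced from E14 mouse embryonic stem cells (mESCs) in 2i/LIF and from embryoid bodies (EBs), aggregates that differentiate in suspension in serum medium. The NSD1-dTAG knock-in line carries a degron on NSD1, and dTAG-13 recruits a ubiquitin ligase to proteins with that tag. There were 5 groups of 3 libraries. They were NSD1-dTAG EBs at day 6 with 500 nM dTAG-13, NSD1-dTAG EBs at day 6 nontreated and NSD1-dTAG mESCs nontreated. The others were WT mESCs with 500 nM dTAG-13 for 72 h and WT mESCs nontreated. All EBs came from the knock-in line, so the effect of dTAG-13 in EBs without a tag was not measured, and the labels do not say whether the line is 1 clone. The degron acts on protein, so the Nsd1 transcript does not check it: Nsd1 was at 219 to 309 CPM (gene counts scaled to library size) in dTAG-13 EBs and 200.4 to 250.3 CPM in nontreated EBs. The labels call the replicates biological and do not describe separate cultures. The p-values then speak of these samples' spread only, which may be technical.

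Libraries held 18704591 to 29103958 gene counts, and 3 counts, the limit that a count of 0 allows, equal 0.101 to 0.163 CPM. Naive stem cell markers summed to 243 to 338 CPM in dTAG-13 EBs and 363 to 554 CPM in nontreated EBs, against 3065 to 3695 CPM in NSD1-dTAG mESCs, and all 5 endoderm and all 4 epiblast markers listed were detected in both EB groups. One library in each group stood apart from its replicates: dTAG-13 EB replicate 3, nontreated EB replicate 3, NSD1-dTAG mESC replicate 1, WT dTAG-13 replicate 3 and WT nontreated replicate 1. In all 5 groups that library had the lowest summed gamma level, the lowest Pcdhgc3 level and the shortest read-weighted exon length. For example, summed gamma was 17.9 CPM in dTAG-13 EB replicate 3 against 20.5 and 26.6 CPM in the other replicates, and 27.6 CPM in nontreated EB replicate 3 against 36.4 and 49.6 CPM in the others. The part of this difference in the results was not tested, so the counts of members called are also given without these libraries. That setting leaves out 1 of 3 libraries in each group, and more genes were called in it in every comparison. ERCC spike-in reads were 0.292% to 0.496% of counts in the 9 mESC libraries and 0 in the 6 EB libraries. Library preparation may thus differ between EBs and mESCs, and this cannot be told apart from cell state.

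How reads on shared exons were counted limits what these values mean. On their own strand, alpha members share 38.9% to 91.4% of their exon bases with another annotated gene, gamma members 31.5% to 66.8%, and beta members 0% to 9.67%. The 4 annotated genes in the clusters with no unshared base on their strand had 0 counts in every library, whereas Pcdhga10, which has unshared bases only if strand is used, had 195 counts in all. The member values are therefore read here as reads on unshared, mostly variable, exons. The sources used here do not give the counting settings.

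The variable exons of the 3 clusters also differ in sequence. The first exon has a median GC content of 53.0% in alpha, 46.0% in beta and 51.6% in gamma members. Windows of 100 bases were taken at each position of a first exon. Those that also occur in another member's first exon are at most 9.65% of the windows in alpha, 7.73% in beta and 9.69% in gamma members. The share is 0 for 14 of 21 gamma, 9 of 22 beta and 2 of 14 alpha members. It is 0 for Pcdhgc3 and 5.47% for Pcdhb22, whose start overlaps the end of the neighbouring Pcdhb21. Reads from such stretches cannot be assigned to 1 gene.

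The gamma cluster held nearly all of the signal in every group. Over the 15 libraries, gamma members had 11065 counts (96.7% of member counts), beta members 257 (2.25%) and alpha members 119 (1.04%). Pcdhgc3 alone had 6182 counts, or 54.0% of member counts. It was followed by Pcdhga11 with 983, Pcdhga1 with 930 and Pcdhga12 with 469. All 21 gamma genes were detected, including the weakest, Pcdhga6, with 13 counts. The heat map of all members shows this broad gamma expression beside mostly empty alpha and beta clusters.

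**Figure D1:**
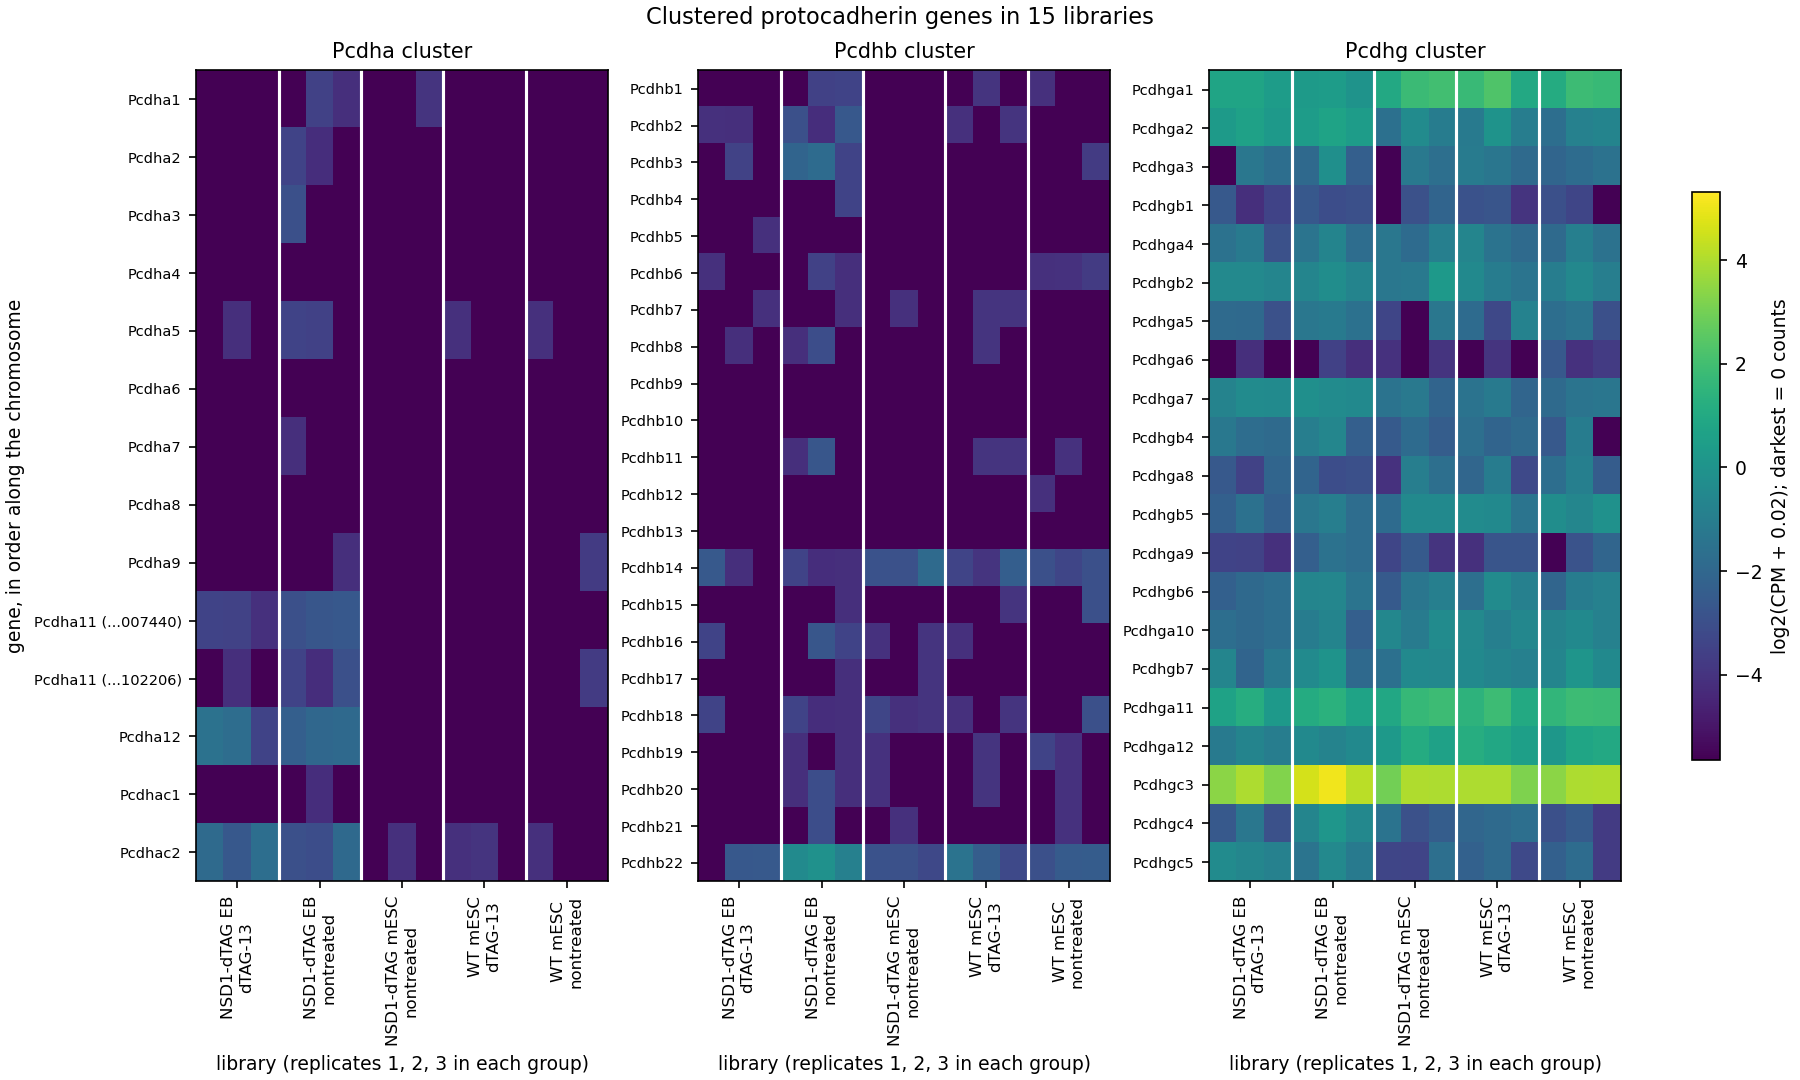
Level of each clustered protocadherin gene (rows, in chromosomal order, 1 panel per cluster) in each of the 15 libraries (columns, 3 per group), as log2(CPM + 0.02) on a colour scale. Pcdhgc3 is the brightest row in every library, and alpha genes are nearly empty outside the EB libraries.

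Per kilobase of unshared exon, Pcdhgc3 was the highest member in all 5 groups. Its level was 3.51 ± 0.95 CPM per kb in dTAG-13 EBs, 7.56 ± 2.44 in nontreated EBs, 3.95 ± 1.41 in NSD1-dTAG mESCs, 3.98 ± 1.11 in WT dTAG-13 mESCs and 4.20 ± 0.89 in WT nontreated mESCs (SD, n = 3 each). Pcdhga11 was second in all 5 groups, at 0.636 ± 0.212 CPM per kb in dTAG-13 EBs, 0.792 ± 0.180 in nontreated EBs and 1.11 ± 0.35 in NSD1-dTAG mESCs. The gene in the third place differed with cell state. It was Pcdhga2 in both EB groups, at 0.514 ± 0.063 CPM per kb with dTAG-13 and 0.551 ± 0.066 nontreated, and Pcdhga1 in the 3 mESC groups, at 0.975 ± 0.331 CPM per kb in the NSD1-dTAG line. Spearman's rho between position in the cluster and level per kb lay between −0.01 and 0.13 in the 5 groups over the 21 gamma genes. Over the 18 A-type and B-type genes it was −0.06 in dTAG-13 EBs, −0.12 in nontreated EBs, 0.21 in NSD1-dTAG mESCs, 0.12 in WT dTAG-13 mESCs and 0.30 in WT nontreated mESCs. These are descriptions without a test, over genes measured in the same libraries.

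In differentiation (nontreated EBs against nontreated NSD1-dTAG mESCs), members changed in both directions. Pcdhb22, Pcdhgc4, Pcdhgc5, Pcdhgc3, Pcdhga2 and Pcdhga7 rose, while Pcdhga1 and Pcdhga12 fell. Of 16 members that passed the filter on low counts, 6 were called higher and 2 lower by edgeR's quasi-likelihood test at a Benjamini-Hochberg adjusted p below 0.05. The background was 33.1% of 15193 genes called higher, 26.3% called lower and 59.5% either way. With no overlap of the groups in CPM, 6 of the 16 were higher and 2 lower, against 5578 and 4708 of all 15193 genes. The median log2 fold change was 0.45 for the 16 members and 0.02 for all genes tested. The filter admits a gene through the group where it is high, so the 16 are not a sample of the 57. Without the libraries that stood apart, 9 of 18 members tested were called, 6 higher and 3 lower, against 73.2% of all genes tested in that setting.

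The C-type gamma genes all rose. Pcdhgc3, the C-type isoform also expressed outside neurons, had 24.3, 34.3 and 18.0 CPM in nontreated EBs, against 7.85, 16.3 and 15.9 CPM in NSD1-dTAG mESCs. The groups did not overlap, and the log2 fold change was 0.96 ± 0.32 (SE, adjusted p = 0.0324). Without nontreated EB replicate 1 or 2 the call was lost (adjusted p = 0.0690 and 0.123). Pcdhgc4, whose product neurons need for survival in mice, had 17, 32 and 19 counts in nontreated EBs, against 9, 3 and 4 in NSD1-dTAG mESCs, a log2 fold change of 1.91 ± 0.44 (adjusted p = 0.00617). Pcdhgc5, a C-type isoform best known from the brain, had 10, 21 and 12 counts in nontreated EBs, against 2, 2 and 7 in NSD1-dTAG mESCs (log2 fold change 1.77 ± 0.56, adjusted p = 0.0252). Its call was lost without NSD1-dTAG mESC replicate 1 or 2 or nontreated EB replicate 2 (adjusted p = 0.0771, 0.0905 and 0.0945), and without the libraries that stood apart (0.0564).

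Among the stochastic gamma genes, changes went both ways. Pcdhga2 had 37, 48 and 37 counts in nontreated EBs, against 8, 20 and 11 in NSD1-dTAG mESCs (log2 fold change 1.48 ± 0.34, adjusted p = 0.00553). Pcdhga7 had 24, 23 and 20 counts in nontreated EBs, against 9, 11 and 5 in NSD1-dTAG mESCs (1.26 ± 0.31, adjusted p = 0.00853). In both genes every nontreated EB library was above every NSD1-dTAG mESC library in CPM, as in 5578 of 15193 genes tested. Pcdhga1, the first gene of the cluster, had 35, 39 and 27 counts in nontreated EBs, against 51, 94 and 94 in NSD1-dTAG mESCs (−1.41 ± 0.31, adjusted p = 0.00496). Pcdhga12, the last A-type gene, had 20, 17 and 20 counts in nontreated EBs, against 31, 56 and 36 in NSD1-dTAG mESCs (−1.25 ± 0.30, adjusted p = 0.00657). These 4 calls held in every alternative in which the gene was tested. Summed over the 18 A-type and B-type genes, the level was 11.0 CPM in nontreated EBs and 12.8 CPM in NSD1-dTAG mESCs.

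Pcdhgc3 took a larger share of gamma counts in nontreated EBs than in any other group. The share was 66.8%, 69.2% and 65.2% in nontreated EBs, against 47.7%, 52.6% and 49.7% in NSD1-dTAG mESCs. In dTAG-13 EBs it was 52.2%, 58.3% and 52.6%. It lay between 46.6% and 52.9% in the 6 WT libraries. The 3 nontreated EB libraries therefore stood above all 12 others. The library that stood apart had the lowest share of its group in 4 of 5 groups, all but the dTAG-13 EBs. No test was made, because the share combines members chosen with earlier results known. The stacked plot shows the same change as a larger Pcdhgc3 segment over an A-type and B-type segment of similar height.

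**Figure D2:**
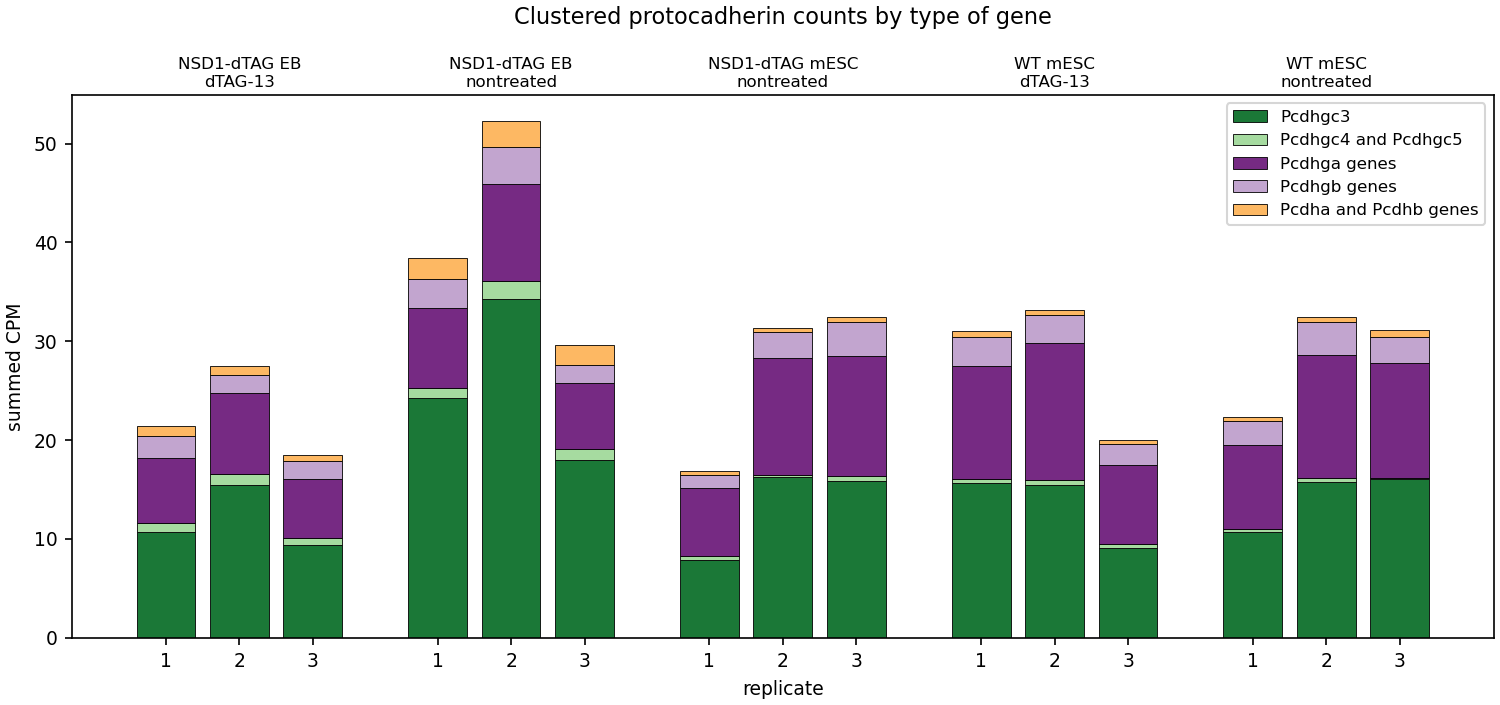
Summed CPM of the clustered protocadherins in each of the 15 libraries (bars, 3 per group), divided into Pcdhgc3, the other gamma C-type genes, the A-type and B-type gamma genes, and the alpha and beta genes together. Pcdhgc3 reaches 24.3, 34.3 and 18.0 CPM in nontreated EBs and between 7.85 and 16.3 CPM in the other 12 libraries.

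The beta and alpha clusters were close to silent in mESCs and gained counts in EBs. Beta members summed to 38, 59 and 35 counts in nontreated EBs, against 11, 9 and 11 in NSD1-dTAG mESCs, a ratio of 3.78 (95% interval 2.54 to 5.78, counting error only). The main source was Pcdhb22, the last beta gene, with 21, 27 and 15 counts in nontreated EBs and 3, 3 and 2 in NSD1-dTAG mESCs. Its log2 fold change was 2.77 ± 0.39 (adjusted p = 4.3e-04), the smallest adjusted p of any member, and the call held in every alternative in which it was tested. Without Pcdhb22 the beta sum was 69 counts over the nontreated EB group and 23 over the NSD1-dTAG mESC group, a ratio of 2.66 (1.64 to 4.47). Alpha members summed to 21, 21 and 23 counts in nontreated EBs, against 0, 1 and 1 in NSD1-dTAG mESCs, a ratio of 28.8 (7.67 to 243).

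Within the alpha cluster, most EB counts came from genes near its 3′ end. Pcdha12, the last of the stochastic alpha genes, had 5, 7 and 7 counts in nontreated EBs and 0 in all 9 mESC libraries. That makes it at least 5.62-fold higher than in NSD1-dTAG mESCs, against 3 counts over the group. The C-type gene Pcdhac2 had 3, 3 and 7 counts in nontreated EBs, against 0, 1 and 0 in NSD1-dTAG mESCs, a ratio of 11.5 (1.73 to 490). The other C-type gene, Pcdhac1, had 1 count in all 15 libraries, in nontreated EB replicate 2. None of these passed the filter on low counts. With no filter, Pcdha12 (adjusted p = 0.00192), Pcdhac2 (0.0326), Pcdha11 of ENSMUSG00000007440 (0.0135), Pcdhb3 (0.00646) and Pcdhb2 (0.0434) were also called higher. In all, 11 of 49 members were then called higher and 2 lower, against 5819 and 4309 of 28338 genes.

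With dTAG-13 in EBs of the NSD1-dTAG line, Pcdhgc3 and Pcdhb22 fell relative to nontreated EBs. Both of these genes had risen in nontreated EBs over mESCs, a comparison that shares the nontreated EB libraries. Of 12 members tested, 2 were called lower and 0 higher. Among all 15236 genes tested, 2.78% were called lower, 3.98% higher and 6.76% either way, or 1030 genes, and 182 to 1293 without 1 library. At an unadjusted p below 0.05 there were 3 of 12 members, all lower, against 21.7% of all genes. DESeq2 also called 3 lower and 0 higher, against 729 and 957 of 15236 genes. The median log2 fold change was −0.36 for the 12 members and −0.01 for all genes tested. A count of 2 is too small to read against that background as a result about the clusters. Here too the filter admits a gene through the group where it is high. The 12 members, their median and the direction of their calls are therefore not a sample of the clusters. Fewer cells of a type and less RNA per cell cannot be told apart in these bulk samples.

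Pcdhgc3 had 291, 442 and 256 counts in dTAG-13 EBs, against 680, 1022 and 505 in nontreated EBs. In CPM these were 10.7, 15.5 and 9.41 with dTAG-13 and 24.3, 34.3 and 18.0 without. The groups did not overlap, and the dTAG-13 values lay in the range of the mESC libraries. The log2 fold change was −1.11 ± 0.26 (SE, edgeR quasi-likelihood test, adjusted p = 0.0438). The call was lost without nontreated EB replicate 1 or 2, or without dTAG-13 EB replicate 1 or 3 (adjusted p = 0.106, 0.147, 0.145 and 0.0764). It was also lost with a minimum of 1 CPM (0.0519). Without the libraries that stood apart the log2 fold change was −1.16 (adjusted p = 0.00764). In that setting 3233 of 15463 genes were called, against 1030 of 15236 in the main fit.

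Pcdhb22 had 0, 4 and 4 counts in dTAG-13 EBs, against 21, 27 and 15 in nontreated EBs. The groups did not overlap. The log2 fold change was −2.87 ± 0.59 (adjusted p = 0.0294). The call was lost without nontreated EB replicate 1 or 2, or without dTAG-13 EB replicate 1 or 2 (adjusted p = 0.0891, 0.121, 0.0653 and 0.0759). It held without the libraries that stood apart (−3.45, adjusted p = 0.0112), where 3233 of 15463 genes were called. It is the highest beta member by counts, and the only one that passed the filter in this comparison. It passed through the nontreated EBs, where it was high.

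The other C-type genes gave different values in the same libraries. Pcdhgc4 had 4, 11 and 3 counts in dTAG-13 EBs, against 17, 32 and 19 in nontreated EBs. The groups did not overlap, and the log2 fold change of −1.85 ± 0.48 missed the threshold (adjusted p = 0.0601). With the replicate number as a block it passed (−1.88, adjusted p = 0.0244), which took the members called from 2 to 3. All genes called went from 1030 to 1834 of 15236. Pcdhgc5 had 21, 18 and 15 counts in dTAG-13 EBs, against 10, 21 and 12 in nontreated EBs. The groups overlapped, and its log2 fold change was 0.38 ± 0.34 (adjusted p = 0.592). Pcdhac2 had 7, 4 and 8 counts in dTAG-13 EBs, against 3, 3 and 7 in nontreated EBs, a ratio of 1.51 (95% interval 0.708 to 3.33, counting error only). Whether the C-type genes differ from each other in this effect was not tested.

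**Figure D3:**
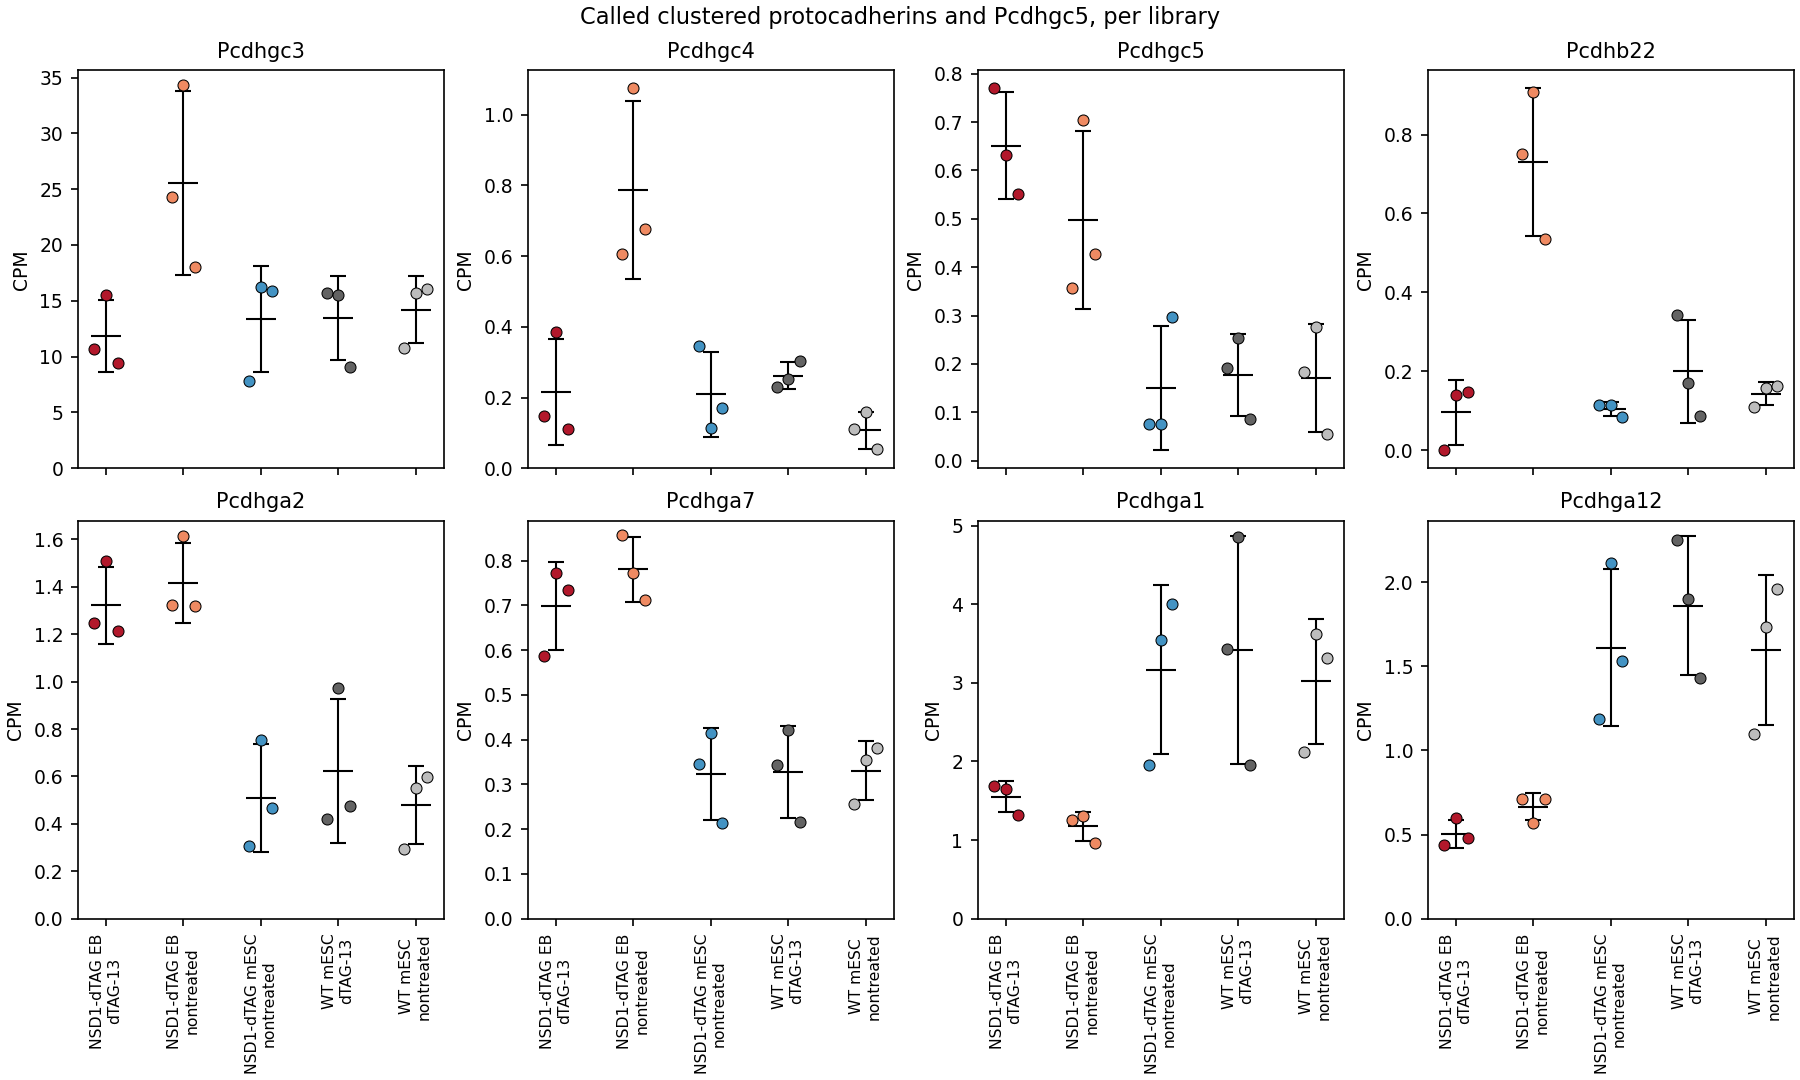
CPM of 8 clustered protocadherins in each library (points), with the mean and SD of each group of 3 (bars), on linear axes. In Pcdhgc3, Pcdhgc4 and Pcdhb22 the nontreated EBs lie above the dTAG-13 EBs and the mESCs, while in Pcdhgc5, Pcdhga2 and Pcdhga7 both EB groups lie above the NSD1-dTAG mESCs, and in Pcdhga1 and Pcdhga12 both lie below them.

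None of the 8 A-type and B-type gamma genes tested was called with dTAG-13, by edgeR, by DESeq2 or at an unadjusted p below 0.05. Their log2 fold changes ran from −0.68 ± 0.54 in Pcdhgb7 to 0.40 ± 0.23 in Pcdhga1. Pcdhga2 had 34, 43 and 33 counts in dTAG-13 EBs, against 37, 48 and 37 in nontreated EBs (−0.10 ± 0.22). Pcdhga1 had 46, 47 and 36 counts in dTAG-13 EBs, against 35, 39 and 27 in nontreated EBs, with every dTAG-13 library higher in CPM. Of the 12 members, 1 was higher and 3 were lower with no overlap in CPM, against 14.4% and 13.3% of all genes tested. Pcdhgb6 was, without the libraries that stood apart, also called lower (−1.51, adjusted p = 0.0328), for 3 of 18 members tested, against 20.9% of all genes tested in that setting.

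Fewer alpha and beta genes had a count with dTAG-13. Alpha members with a count numbered 3, 5 and 3 in dTAG-13 EBs, against 8, 8 and 6 in nontreated EBs. Beta members with a count numbered 5, 5 and 3 in dTAG-13 EBs, against 9, 12 and 14 in nontreated EBs. Neither pair of groups overlapped, at 25574544 to 26792657 gene counts in dTAG-13 EBs and 26825756 to 28085822 in nontreated EBs. The dTAG-13 libraries were thus all shallower, and many of these members had few counts. How many of all genes had a count in each library was not compared, so these numbers have no background. The beta sum was 10, 9 and 6 counts in dTAG-13 EBs, against 38, 59 and 35 in nontreated EBs, a ratio of 0.196 (95% interval 0.122 to 0.302, counting error only). Without Pcdhb22 it was 17 counts over the dTAG-13 group and 69 over the nontreated group, a ratio of 0.255 (0.140 to 0.438). Pcdhb3, for example, had 0, 2 and 0 counts in dTAG-13 EBs, against 6, 8 and 2 in nontreated EBs. The alpha sum was 18, 16 and 11 counts in dTAG-13 EBs, against 21, 21 and 23 in nontreated EBs, a ratio of 0.716 (0.478 to 1.06). Pcdha12 had 9, 8 and 2 counts in dTAG-13 EBs, against 5, 7 and 7 in nontreated EBs, 19 counts in each group.

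Summed gamma levels were 20.5, 26.6 and 17.9 CPM in dTAG-13 EBs, against 36.4, 49.6 and 27.6 CPM in nontreated EBs, and the groups did not overlap. Without Pcdhgc3 the sums were 9.79, 11.1 and 8.49 CPM in dTAG-13 EBs, against 12.1, 15.3 and 9.59 CPM in nontreated EBs, and the groups overlapped. These sums are described without a test.

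Marker genes of other cell types moved in the same libraries. The 5 mesoderm markers summed to 27.1 to 111 CPM in dTAG-13 EBs and 279 to 705 CPM in nontreated EBs, and 3 of 5 were called lower (Eomes, Mesp1 and Mixl1). The 5 endoderm markers summed to 22.6 to 60.2 CPM in dTAG-13 EBs and 75.1 to 230 CPM in nontreated EBs, and 2 of 5 were called lower (Foxa2 and Cer1). These 5 calls were lost without nontreated EB replicate 1 or 2 or dTAG-13 EB replicate 1, and that of Cer1 also without dTAG-13 EB replicate 2 (adjusted p from 0.0605 to 0.128). Of 8 naive stem cell markers, 4 were called lower. The 8 neural progenitor markers summed to 186 to 257 CPM in dTAG-13 EBs and 164 to 243 CPM in nontreated EBs, with 1 of 3 tested called lower (Pax6). That sum was mostly Nes, at 207, 251 and 181 CPM in dTAG-13 EBs and 234, 154 and 180 CPM in nontreated EBs. The 10 neuron markers summed to 162 to 175 CPM in dTAG-13 EBs and 180.3 to 192 CPM in nontreated EBs. Of 9 tested, 0 were called and 1 had an unadjusted p below 0.05, against 21.7% of all genes. The 10 neuron markers summed to 320 to 474 CPM in NSD1-dTAG mESCs, where Stmn2 alone had 403, 266 and 256 CPM. These 2 sums are therefore no measure of neural cells. No neuron marker was at 0 in all libraries of either EB group. The part of these cell types in the protocadherin values was not tested.

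Set against NSD1-dTAG mESCs, dTAG-13 EBs had 10 members tested, 3 called higher and 3 lower. The background was 34.4% of genes called higher, 27.1% lower and 61.5% either way. These 10 members also passed a filter that admits a gene through the group where it is high. This comparison shares its mESC libraries with that of the nontreated EBs, so the values are given side by side. Pcdhgc5 had a log2 fold change of 2.14 ± 0.49 in dTAG-13 EBs and 1.77 ± 0.56 in nontreated EBs. Pcdhga2 had 1.38 ± 0.34 with dTAG-13 and 1.48 ± 0.34 without, and Pcdhga7 had 1.10 ± 0.32 with and 1.26 ± 0.31 without. Pcdhga12 had −1.65 ± 0.31 with dTAG-13 and −1.25 ± 0.30 without, and Pcdhga1 had −1.01 ± 0.30 with and −1.41 ± 0.31 without. Pcdhga10 was called lower with dTAG-13 (−1.13 ± 0.33, adjusted p = 0.0159). It was not called in nontreated EBs (−0.54 ± 0.44, adjusted p = 0.315). The dTAG-13 calls of Pcdhga7 and Pcdhga10 were lost without NSD1-dTAG mESC replicate 3 (adjusted p = 0.0744 and 0.0637) or dTAG-13 EB replicate 2 (0.0630 and 0.0640), and with DESeq2 (0.0525 and 0.05003), which called Pcdhga11 lower instead (0.0442). That of Pcdhga1 was lost without NSD1-dTAG mESC replicate 3 (0.0572) or dTAG-13 EB replicate 3 (0.0528).

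The genes called lower with dTAG-13 in EBs, Pcdhgc3 and Pcdhb22, and the uncalled Pcdhgc4 were also set against mESCs. Pcdhgc3 had a log2 fold change of −0.15 ± 0.30 over NSD1-dTAG mESCs (adjusted p = 0.684), at 11.9 ± 3.22 CPM in dTAG-13 EBs and 13.3 ± 4.76 CPM in NSD1-dTAG mESCs (SD, n = 3 each). Pcdhb22 had 8 counts over the dTAG-13 EB group and 8 over the NSD1-dTAG mESC group, a ratio of 0.917 (95% interval 0.300 to 2.80, counting error only). Pcdhgc4 had 18 and 16 counts in these groups, a ratio of 1.03 (0.497 to 2.16). These intervals leave room for differences larger than 2-fold. Without the libraries that stood apart, 9 of 13 members tested were called, with 3 higher and 6 lower, against 79.7% of all genes tested in that setting. Pcdhgc3 was among the lower ones (−0.29, adjusted p = 0.0436). Without NSD1-dTAG mESC replicate 3, 3 of 11 members tested were called, against 8961 of 15716 genes.

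**Figure D4:**
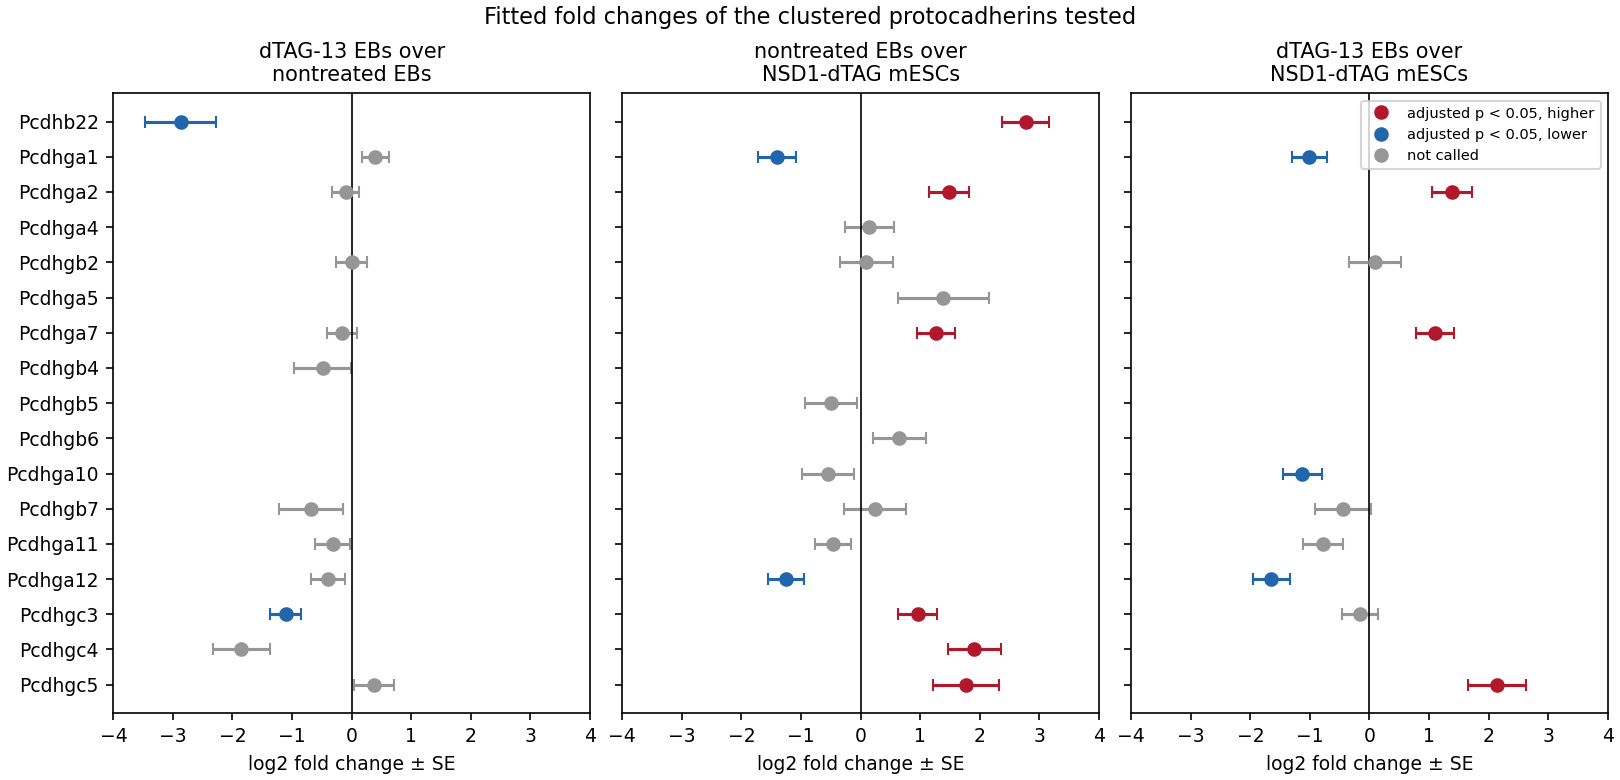
Log2 fold changes with their standard errors for the 17 clustered protocadherins that were tested in at least 1 of the 3 EB comparisons, in chromosomal order, with genes called at an adjusted p below 0.05 in colour. Pcdhb22 and Pcdhgc3 lie right of 0 in nontreated EBs over mESCs and left of 0 in dTAG-13 EBs over nontreated EBs.

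In mESCs, neither the knock-in nor dTAG-13 without a tag gave a protocadherin call among the members tested. The 10 members that passed the filter were gamma genes in both comparisons. Pcdhb22, Pcdhgc4, Pcdhgc5 and all alpha genes were not among them. With no filter, 0 of 41 members were called in each. In NSD1-dTAG mESCs against WT mESCs, both nontreated, 0 of 10 members tested were called by edgeR or DESeq2 and 0 had an unadjusted p below 0.05. The background was 0.547% of 13895 genes called higher, 1.32% lower and 1.86% either way, or 259 genes. That total was 785 with the replicate block and 3123, or 22.7%, without the libraries that stood apart. It ran from 1 to 1248 without 1 library: 3, 2 and 3 without WT nontreated replicate 1, 2 and 3, and 1248, 1 and 12 without NSD1-dTAG mESC replicate 1, 2 and 3. Members called were 0 in each of these settings. Log2 fold changes ran from −0.48 ± 0.37 in Pcdhgb7 to 0.20 ± 0.48 in Pcdhgb2. Pcdhgc3 had 7.85, 16.3 and 15.9 CPM in NSD1-dTAG mESCs, against 10.7, 15.7 and 16.1 CPM in WT mESCs (−0.09 ± 0.30). In WT mESCs with dTAG-13 against nontreated WT mESCs, 0 of 10 members were called by either tool and 0 had an unadjusted p below 0.05. The background was 0% of 13784 genes called by edgeR, with 229 at an unadjusted p below 0.05 and 0 called by DESeq2. With the libraries that stood apart left out, 0 of 12 members and 16 of 13861 genes were called. Pcdhgc3 had 15.7, 15.5 and 9.11 CPM in WT dTAG-13 mESCs, against 10.7, 15.7 and 16.1 CPM in nontreated WT mESCs (−0.07 ± 0.23).

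The dTAG-13 effect in NSD1-dTAG EBs was set directly against that in WT mESCs by an interaction contrast over 12 libraries. Of 18 members tested, 1 had a lower effect in EBs, against 1.27% of 15855 genes lower, 1.6% higher and 2.88% either way. It was Pcdhgc4, with a difference of −3.04 ± 0.72 on the log2 scale (edgeR quasi-likelihood test, adjusted p = 0.0414). It had 4, 11 and 3 counts in dTAG-13 EBs, against 17, 32 and 19 in nontreated EBs. In WT mESCs it had 6, 6 and 7 counts with dTAG-13, against 3, 4 and 1 nontreated. Thus the counts were lower with dTAG-13 in EBs and higher with it in WT mESCs, on at most 7 counts per WT library. Pcdhb22 differed by −3.39 ± 0.90 (adjusted p = 0.0650) and Pcdhgc3 by −1.04 ± 0.38 (adjusted p = 0.194), short of the threshold. The Pcdhgc4 call was lost without any 1 of the 6 WT libraries, nontreated EB replicate 2 or dTAG-13 EB replicate 1 or 3 (adjusted p from 0.0555 to 0.112). It was also lost without the libraries that stood apart (0.0874), where Pcdhb22 and Pcdhgc3 were called (−4.14 and −1.14, adjusted p = 0.0221 and 0.0113), against 11.9% of all genes. Cell state and tag differ together here and cannot be told apart. As in the other comparisons, a member could pass the filter through 1 group where it is high, so the 18 are not a sample of the clusters.

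Genes that act on protocadherin promoters were all expressed, and none of 25 was called with dTAG-13 in EBs by edgeR. There were 5 at an unadjusted p below 0.05, against 21.7% of all genes. DESeq2 called 1 lower, against 729 of 15236 genes. Trim28, a corepressor that recruits Setdb1, had 1358, 1283 and 1111 CPM in dTAG-13 EBs, against 1449, 1522 and 1441 CPM in nontreated EBs. Wapl, which releases cohesin, had 459, 444 and 369 CPM in dTAG-13 EBs, against 532, 509 and 436 CPM in nontreated EBs. Ctcf, the insulator protein that loops enhancers to protocadherin promoters, had 206, 207 and 163 CPM in dTAG-13 EBs, against 205, 208 and 202 CPM in nontreated EBs. Dnmt3b, a de novo DNA methyltransferase, had 1275, 1435 and 938 CPM in dTAG-13 EBs, against 663, 657 and 1206 CPM in nontreated EBs, so the groups overlapped through replicate 3 of each. Without the libraries that stood apart, 7 of the 25 were called higher and 3 lower, against 20.9% of all genes called in that setting. In nontreated EBs against NSD1-dTAG mESCs, 7 of 25 rose and 6 fell, against 59.5% of all genes called. Without the libraries that stood apart 8 rose and 13 fell, against 73.2% of all genes called. Dnmt3a, the other de novo methyltransferase, rose by 3.60 ± 0.21 on the log2 scale, and Dnmt3b by 2.84 ± 0.26. Stag2, a cohesin subunit, rose by 1.18 ± 0.10. Tet2, a methylcytosine dioxygenase, had a log2 fold change of −3.11 ± 0.37. Their adjusted p-values were all below that of any clustered protocadherin in this comparison. In NSD1-dTAG mESCs Dnmt3a was lower than in WT mESCs (−1.14 ± 0.16, adjusted p = 0.0265), the only 1 of 25 called there, against 1.86% of all genes. That call was lost without any WT nontreated library or without NSD1-dTAG mESC replicate 2 or 3 (adjusted p from 0.0690 to 0.145).

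Of 19 genes for signalling and processing partners of the proteins, including the kinases Ptk2 and Ptk2b that the constant domains bind and the gamma-secretase subunits that cleave them, 8 rose and 2 fell in nontreated EBs over NSD1-dTAG mESCs, against 59.5% of all genes called. Fyn, a Src-family kinase, rose by 2.08 ± 0.12 on the log2 scale and Cyfip2, a subunit of the WAVE complex, by 2.48 ± 0.21. With dTAG-13 in EBs 1 of 19 was called, against 6.76% of all genes. It was Fyn, at 47.4, 46.6 and 53.9 CPM in dTAG-13 EBs against 37.9, 33.5 and 38.4 CPM in nontreated EBs (0.43 ± 0.10, adjusted p = 0.0492). The Fyn call was lost without nontreated EB replicate 1 or 2 or any dTAG-13 EB library (adjusted p from 0.0721 to 0.212).

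The non-clustered protocadherins are separate genes, of which Pcdh1 lies beside the clusters and is also counted among the neighbours below. In nontreated EBs over NSD1-dTAG mESCs, 5 of 6 tested rose, against 33.1% of all genes. Pcdh1 rose by 8.17 ± 0.24 on the log2 scale. Pcdh7 had 3718 counts over the nontreated EB group and 0 over the NSD1-dTAG mESC group, at least 1099-fold higher against 3 counts over the group. With dTAG-13 in EBs, 2 of 6 fell and 1 rose, against 2.78% and 3.98% of all genes. Pcdh7 had 1.83, 4.001 and 2.06 CPM in dTAG-13 EBs, against 40.1, 73.7 and 14.2 CPM in nontreated EBs (−4.01 ± 0.60, adjusted p = 0.0118). Its call was lost without dTAG-13 EB replicate 1 (adjusted p = 0.0558). Pcdh19, a delta-type protocadherin whose human gene is mutated in an epilepsy, changed by −1.55 ± 0.38 (adjusted p = 0.0488) and Pcdh17 by 1.67 ± 0.36 (adjusted p = 0.0337). The Pcdh19 call was lost without nontreated EB replicate 1 or 2 or dTAG-13 EB replicate 1 or 2 (adjusted p from 0.0991 to 0.173), and the Pcdh17 call without any 1 EB library (from 0.0635 to 0.132). Whether the 2 families differ in response was not tested.

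Genes beside the clusters were taken from the annotation. Of 34 protein-coding neighbours between the clusters or within 500 kb of the outermost members, 26 were tested with dTAG-13 in EBs. Only Rell2 was called, higher by 0.83 ± 0.19 on the log2 scale (adjusted p = 0.0383), against 6.76% of all genes called. At an unadjusted p below 0.05 there were 7 of 26, against 21.7% of all genes. DESeq2 called 2, against 1686 of 15236 genes. The Rell2 call was lost without any 1 EB library (adjusted p from 0.0555 to 0.162). In nontreated EBs over NSD1-dTAG mESCs, 7 of the 26 rose, led by Pcdh1 and Arap3, and 5 fell, against 33.1% and 26.3% of all genes. Inside the clusters, the long non-coding gene 3222401L13Rik ends 51 bases before the start of Pcdhga1 on the same strand. It had 101, 90 and 76 counts in dTAG-13 EBs, 82, 72 and 69 in nontreated EBs and 94, 95 and 113 in NSD1-dTAG mESCs. Gm26672, annotated antisense to Pcdhga10, had 8, 7 and 6 counts in dTAG-13 EBs, 8, 12 and 4 in nontreated EBs and 26, 22 and 12 in NSD1-dTAG mESCs. If the counting did not use strand, reads of Gm26672 and Pcdhga10 could not be told apart. Genes on the other strand also overlap exons of other members. Pcdhgc3, for example, has 3380 unshared bases on its strand and 1821 without regard to strand.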

How the data were processed

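The authors deposited 1 table per library of raw read counts per gene, which were not normalised. Per the labels' protocols, ERCC spike-ins were added and poly(A) RNA went into strand-specific libraries, but the 6 EB libraries hold 0 ERCC counts. Per the submitters' processing notes, the tools were STAR, DESeq2 1.30.0 and bcl2fastq 2.20.0.422, with builds GRCm38.p6 and mm10. The sources used here do not give strand use, treatment of shared reads or the annotation release. IDs were matched to GENCODE M21 without version (55230 of 55471), and ERCC rows were left out.

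Counts were fitted over all genes with edgeR 4.0.16 (quasi-likelihood test, TMM, filterByExpr, Benjamini-Hochberg adjustment, threshold 0.05), using the libraries of the groups compared. The SE of a log2 fold change is its size divided by the square root of its F statistic. CPM uses TMM factors over 15 libraries. Sums, shares and ratios are described without a test, with exact 95% intervals for counting error only. Alternatives were RLE size factors, no filter, a minimum of 1 CPM, DESeq2 1.42.0, 1 fit of all libraries, the replicate block, and leaving out each library or those that stood apart. The fit was tested on simulated counts. Replicate pairs differed by 1.52 to 106 times the sampling noise (chi-square per degree of freedom), so none was merged.

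Same-numbered replicates deviated together in dTAG-13 against nontreated EBs (r from 0.228 to 0.373) and in NSD1-dTAG against WT mESCs (0.285 to 0.584), but not in the other comparisons. Only in these 2 comparisons do the libraries that stood apart bear the same number. Different-numbered replicates reached 0.175 in the EBs and 0.251 in NSD1-dTAG against WT mESCs. In WT dTAG-13 against nontreated mESCs the differently numbered libraries that stood apart had the highest r, 0.469. Whether replicates were paired was not tested. The pairing comes from the replicate numbers in the labels.

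Members, lists and the libraries set apart were chosen with earlier results of these data known. Named are all members, with values for C-type genes, up to 6 called members a cluster and comparison, and each cluster's highest member; of other lists, up to 4 called genes by p, or the 2 highest. Pcdhb3, Pcdhgb6, Ctcf, Nes, Stmn2, Dnmt3b in dTAG-13 EBs, and the genes beside Pcdhga1 and Pcdhga10 were also named after their values were seen. No sequence is printed.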

Additional observations from a re-analysis of the deposited data

Results flagged for a closer look

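The dTAG-13 effect on Pcdhgc4 differed between NSD1-dTAG EBs and WT mESCs by −3.04 on the log2 scale (SE 0.72, edgeR quasi-likelihood interaction test, adjusted p = 0.0414). All 3 dTAG-13 EB libraries were below all 3 nontreated EB libraries in CPM, as in 13.3% of genes tested there. All 3 WT dTAG-13 libraries were above all 3 nontreated WT libraries, as in 418 of 13784 genes tested there. Pcdhgc4 itself did not pass the filter in the WT comparison. The difference was called in 6 of 16 alternatives, with values from −3.77 to −2.69 in all 16. It rests on at most 32 counts in an EB library and at most 7 in a WT library. The call was lost without any 1 WT library and in other settings, among them without the libraries that stood apart (−2.69, adjusted p = 0.0874).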

How the results depend on the processing

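Over the alternatives run, members' log2 fold changes that the text names kept their direction and side of the threshold in 264 cases, lost the call in 33, gained it in 8 and changed sign in 7, all 7 uncalled. With no filter on low counts, 13 of 49 members were called in nontreated EBs over mESCs, against 10128 of 28338 genes. In dTAG-13 EBs over mESCs 10 of 41 were called, against 10628 of 28313 genes. In the interaction 3 of 51 were called, against 915 of 30609 genes. With a minimum of 1 CPM in 3 libraries there were 4 of 5 members (7995 of 13281 genes), 3 of 5 (8320 of 13311) and 0 of 5 (452 of 13789). In dTAG-13 over nontreated EBs there were 0 of 4 members, against 916 of 13332 genes. Without 1 library there were 0 to 2 calls in dTAG-13 over nontreated EBs, 3 to 8 in dTAG-13 EBs over mESCs and 0 to 2 in the interaction. Among all genes these settings gave 182 to 1293, 8157 to 10338 and 202 to 763 calls. Without the libraries that stood apart the interaction had 2 of 19 members called, against 11.9% of all genes. The log2 ratio of summed alpha levels in nontreated EBs over mESCs was 4.82, against 4.96 with plain CPM, 4.18 without the libraries that stood apart and 4.24 to 5.33 without 1 library. In dTAG-13 EBs over mESCs it was 4.34, against 3.93 and 3.76 to 4.84. Pcdhgc3 changed sign in NSD1-dTAG over WT mESCs without WT nontreated replicate 3 (0.0076), the libraries that stood apart (0.0124) or NSD1-dTAG mESC replicate 1 (0.20), and in WT dTAG-13 over nontreated mESCs without WT nontreated replicate 2 (0.03) or 3 (0.02) or WT dTAG-13 replicate 3 (0.15). Without 1 library these 2 ranged from −0.27 to 0.20 and from −0.24 to 0.15. Pcdhgc5 in the interaction was −0.0784 without WT nontreated replicate 2, and ranged up to 0.73 without 1 library. The cause of these changes was not tested.

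With the replicate number as a block, 3 of 12 members were called in dTAG-13 over nontreated EBs, against 1834 of 15236 genes. In nontreated EBs over mESCs 8 of 16 were called, against 7999 of 15193 genes. In dTAG-13 EBs over mESCs 6 of 10 were called, against 8349 of 15145 genes. In the mESC comparisons 0 of 10 were called, against 785 of 13895 genes for the knock-in and 0 of 13784 for dTAG-13. In the interaction 1 of 18 was called, against 537 of 15855 genes. Same-numbered libraries shared only a number in nontreated EBs over mESCs (r from −0.268 to 0.127), dTAG-13 EBs over mESCs (−0.266 to 0.123) and WT dTAG-13 over nontreated mESCs (−0.288 to 0.233).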
